A study of Sus scrofa with 85 samples.

Results

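RNA of micro-EMB taken from the infarcted (apical) region of the left ventricle during the first hour of coronary occlusion (0–1 h) was compared with RNA of baseline micro-EMB of the same 3 swine. Libraries labelled apical 0–1 h or apical baseline were kept when their total count was at least 1000000 and their 10 most counted genes held 7 to 60% of it. This left 9 of the 85 libraries of the series, 5 of the 6 at 0–1 h and 4 of the 6 at baseline. The swine were female farm pigs of mixed Yorkshire-Swedish breed, in which a balloon closed the distal left anterior descending artery. Each of them served as its own control, since baseline biopsies were taken before the balloon was placed. All were sedated, anesthetized and ventilated at both timepoints and received fentanyl. Amiodarone was also given, just before the intervention and again after an hour. Time under anesthesia, coronary catheterization and earlier biopsies differed between the timepoints too and cannot be told apart from the occlusion. The ages of the swine were not given in the sources used here. Each library is 1 catheter biopsy, so it holds whichever cells the needle met. According to the study the baseline biopsies were aimed at no particular region, although the labels call them apical. Swine 1640 gave 0–1 h replicates 4 and 5 and baseline replicate 6, swine 1644 gave 0–1 h replicate 2 and baseline replicate 1, and swine 5385 gave 0–1 h replicates 1 and 3 and baseline replicates 2 and 5. Replicate numbers name libraries and pair nothing.

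When a coronary artery closes, oxygen supply to the muscle beyond it stops, and cells answer first by transcribing immediate early genes. These genes are held ready for transcription and need no new protein to start. Many encode transcription factors of the FOS, EGR, ATF and NR4A families, and others encode phosphatases and RNA-binding proteins that end the signal again. Genes of inflammation, coagulation and heat shock commonly follow. Cardiomyocytes, fibroblasts, endothelium and leukocytes can all make this response.

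Total counts of the 9 libraries ran from 3499443 to 16659110, and the 10 most counted genes held 13.85% (95% Wilson interval 13.83 to 13.87) to 35.88% (35.84 to 35.92) of them. The left-out library of 0–1 h had 63.87% (63.83 to 63.91), and those of baseline had 2.495% (2.49 to 2.5) and 74.55% (74.52 to 74.58), intervals that cover counting error only. Counts of 31907 Ensembl genes were deposited, and 15029 of them could be given a symbol. Levels are given as CPM, counts per 1000000 after scaling by the trimmed mean of M-values (TMM).

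The labelled tissue was checked first against cell type markers, and 2 of the 9 libraries did not carry those of heart muscle. TNNT2, the cardiac troponin T gene, was at 2.14 CPM in baseline replicate 1 and at 84.9 CPM in 0–1 h replicate 3. In the other libraries it was between 1718 and 9371 CPM. The 4 tested cardiomyocyte markers summed to 97.37 CPM in baseline replicate 1 and 222.3 CPM in 0–1 h replicate 3, against 4441 to 22990 CPM in the other 7 libraries. COL1A1, a fibrillar collagen of fibrous tissue, was at 13635 and 15561 CPM in these libraries and at 1064 to 7570 CPM in the others. Over the 11 tested fibrous tissue markers the difference was smaller. Scaled with libraries outside the comparison, their mean log2 CPM was 8.69 and 9.41, against 8.54 in 0–1 h replicate 4 and at most 7.65 elsewhere. Baseline replicate 1 was the highest of the 9 libraries in 2 of the 11, and 0–1 h replicate 3 in 8. Baseline replicate 1 and 0–1 h replicate 3 also had a component 2 above 25 (53.36 and 49.11) in a principal component analysis, while the other 7 were between -13.55 and 5.787. The sign of component 2 was set to rise with COL1A1. They are called the fibrous libraries here, and the main values are given with and without them.

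The baseline fibrous library differed from that of 0–1 h in fat genes. ADIPOQ, which encodes the fat cell hormone adiponectin, was at 1727 CPM in baseline replicate 1 and at no more than 0.694 CPM in the other 8 libraries. The 5 adipocyte markers summed to 2712 CPM in that library and to 7.922 to 46.21 CPM in the others. Without it, swine 1644 has no baseline library.

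**Figure D1:**
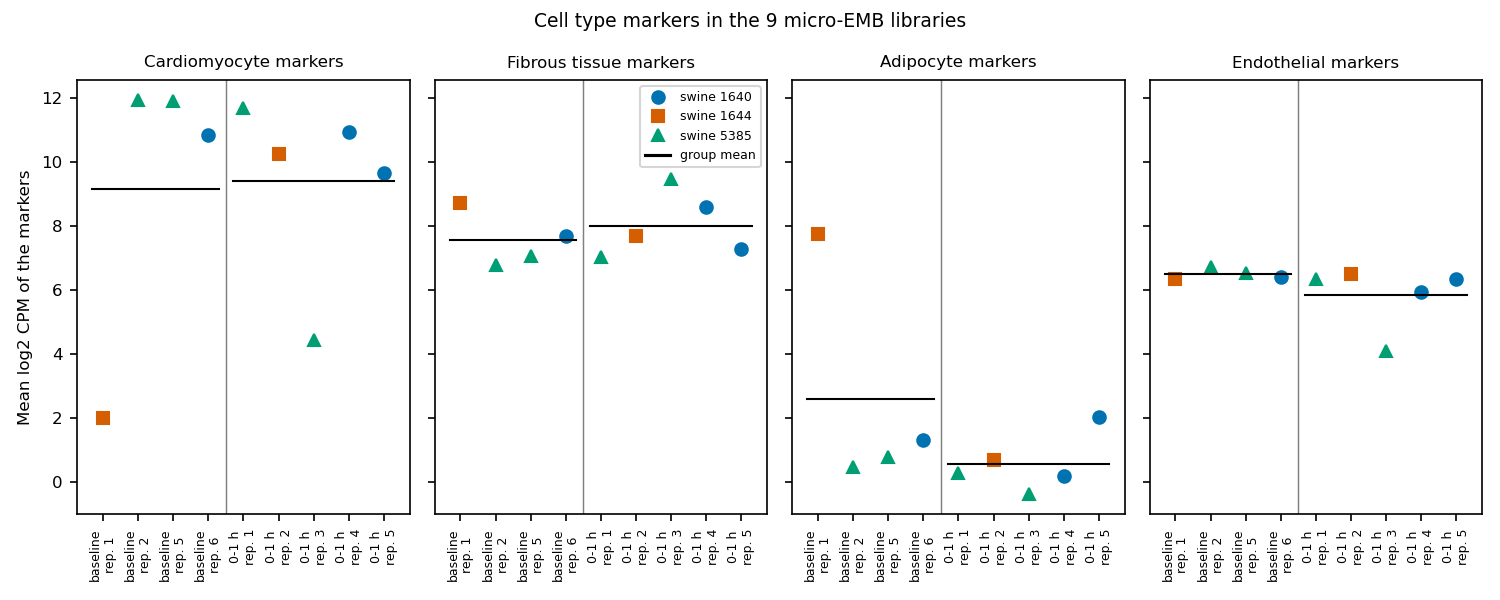
Mean log2 CPM of the tested markers of cardiomyocytes, fibrous tissue, adipocytes and endothelium in each of the 4 baseline and 5 0–1 h libraries, with colour and shape for the swine and a line for each group mean. Baseline replicate 1 (1.99) and 0–1 h replicate 3 (4.45) sit below the other libraries for cardiomyocyte markers, which are at 9.65 or above, and baseline replicate 1 alone is high for adipocyte markers (7.74).

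The question of the comparison was which genes had changed within the hour of occlusion. Among 17929 genes tested by edgeR's quasi-likelihood test in a fit of all 29 kept libraries of the infarcted region, none had a Benjamini-Hochberg adjusted p-value of 0.05 or less, and the smallest was 0.9765. Before adjustment, 335 genes that were higher at 0–1 h (1.87% of those tested) and 261 that were lower (1.46%) had a p under 0.05. Those 596 genes were fewer than the 896 that this threshold would give by itself. Of those 596 genes 56.21% were higher, and with DESeq2's size factors in place of TMM this share was 66.67%, so the balance between the directions depended on the scaling. In 64 genes (0.357%) every 0–1 h library was above every baseline library, and in 91 genes (0.508%) every 0–1 h library was below. DESeq2's Wald test on the same libraries called 2 genes (0.0112%), ARC and FOSL1, both higher. Without the fibrous libraries edgeR again called no gene, with 392 higher (2.17%) and 236 lower (1.3%) at an unadjusted p under 0.05 among 18089. Biopsies of 1 swine were counted as separate samples, and swine was not a term of the fit. The p-values thus measure a spread between libraries that mixes biopsies and animals, estimated over all 29 libraries. They do not take the animals as the replicates. Fewer cells of a type and less RNA per cell cannot be told apart in these samples.

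Immediate early transcription factors had the highest median fold change of the functional gene lists, and most of the size came from 0–1 h replicate 4. Of 26 genes on the list 23 had an identifier and 22 were tested. All 22 had a fold change above 0, beside 54.1% of all genes, and 13 had an unadjusted p under 0.05, beside the 1.87% of all genes. The median log2 fold change was 2.56, against 0.05 over all genes. The mean log2 CPM of the list was 3.14, 3.53, 3.55 and 3.35 in baseline replicates 1, 2, 5 and 6. In 0–1 h replicates 1 to 5 it was 4.33, 3.71, 4.03, 7.43 and 4.62. All libraries of 0–1 h were thus above all of baseline, by a small step in 4 of them and by a wide one in replicate 4. Replicate 4 was above every baseline library in 22 of the 22 genes and replicate 2 in 7, where 24.2% and 15.7% of all genes were so. Replicate 4 was the highest of the 9 libraries in 19 genes, for which no share over all genes was taken. Without replicate 4 the median log2 fold change was 0.85, 19 of the 22 genes were higher (53.7% of all genes) and 1 had an unadjusted p under 0.05 (1.15% of all genes).

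**Figure D2:**
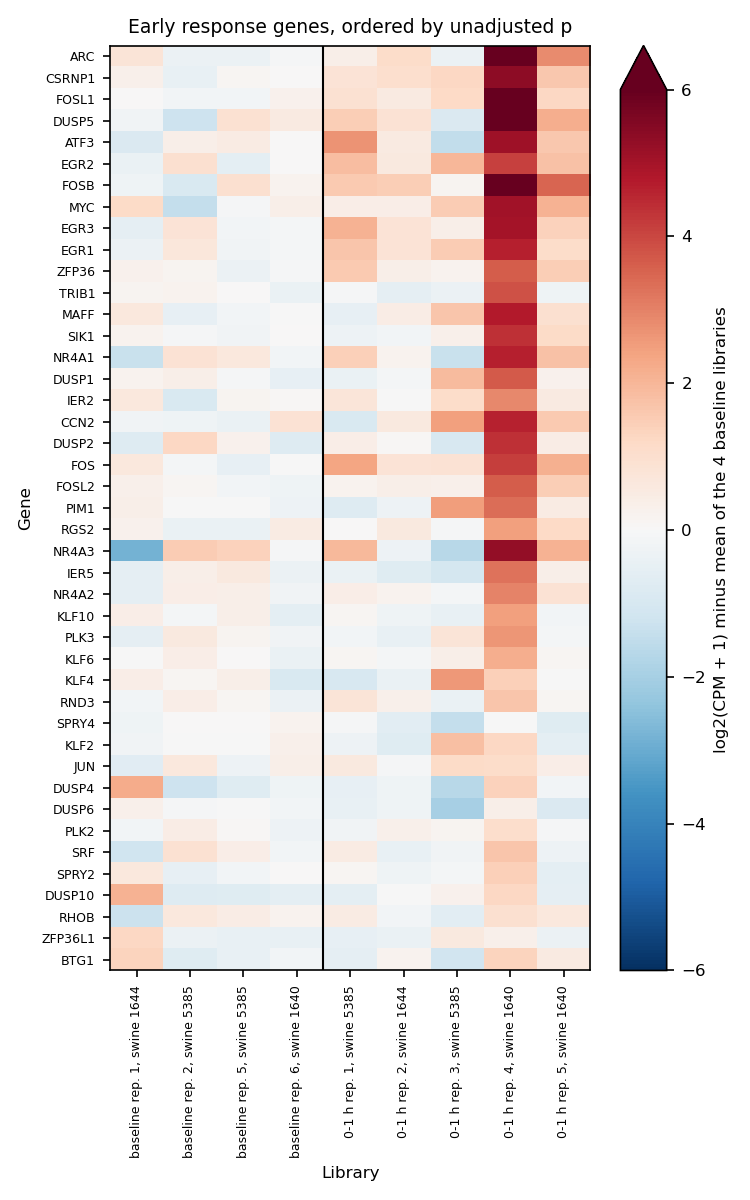
Heat map of the tested immediate early and early response genes (rows, ordered by unadjusted p) in the 4 baseline and 5 0–1 h libraries (columns), as log2(CPM + 1) minus the mean of the baseline libraries, with values above 6 drawn in the darkest red. The column of 0–1 h replicate 4 is red from ARC to most lower rows, while the other 0–1 h columns are paler and mixed.

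FOSL1, a FOS family subunit of the transcription factor AP-1, was at 1.09, 0.617, 1.59, 70.25 and 1.62 CPM in 0–1 h replicates 1 to 5. At baseline it was at 0.153, 0, 0 and 0.347 CPM, which stands for 2, 0, 0 and 7 counts. The groups did not overlap, although 4 of the 5 libraries of 0–1 h held only 4 to 14 counts. The log2 fold change was 6.28 ± 1.80 (SE, unadjusted p = 0.00162, edgeR), and its size depends on the prior count because baseline was near 0.

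CSRNP1, a nuclear protein that activates transcription, was at 13.4, 15.7, 18.8, 337 and 24.3 CPM at 0–1 h and at 9.16, 5.18, 8.04 and 7.33 CPM at baseline. Again no library of one group reached the other. The log2 fold change was 3.45 ± 0.94 (SE, unadjusted p = 0.00101, edgeR), 3.78 without the fibrous libraries and 1.30 without replicate 4.

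EGR1, a zinc finger factor induced by growth signals and stretch, was at 118.9, 64.9, 107.96, 971 and 78.8 CPM at 0–1 h and at 28.7, 59.4, 31.5 and 33.7 CPM at baseline. FOS, the founding member of its family, was at 63.4, 21, 22, 224 and 54.4 CPM at 0–1 h and at 18.3, 10.6, 7.87 and 11.3 CPM at baseline. These were the other two factors whose groups did not overlap. Their log2 fold changes were 2.81 ± 1.00 and 2.67 ± 1.14 (SE, unadjusted p = 0.00864 and 0.0262, edgeR).

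ATF3, a stress-induced factor of the ATF family, was at 105.7, 23.1, 5.04, 568 and 50.9 CPM at 0–1 h and at 8.25, 20.5, 22.4 and 15.7 CPM at baseline. The fibrous library of 0–1 h held the lowest level of all 9, so the groups overlapped. EGR2 was at 12.6, 4.63, 13.8, 62.5 and 11.6 CPM against 1.83, 6.26, 1.51 and 2.82 CPM, and overlapped through 0–1 h replicate 2 and baseline replicate 2. Their log2 fold changes were 3.18 ± 1.04 and 2.79 ± 0.92 (SE, unadjusted p = 0.0047 and 0.00526, edgeR). JUN, the partner of FOS in AP-1, was at 10.8 to 26.5 CPM at 0–1 h and at 6.8 to 18.1 CPM at baseline, with a log2 fold change of 0.65 ± 0.56 (SE, unadjusted p = 0.253, edgeR).

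At 1–3 h, in 9 libraries of the infarcted region, FOSL1 ran from 2.1 to 190 CPM (median 54.9) and CSRNP1 from 16.5 to 207.8 CPM (median 114.6). The level of 0–1 h replicate 4 lay inside the 1–3 h range for FOSL1 and above it for CSRNP1, and the other 0–1 h libraries were below the 1–3 h median for both genes.

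Promoters were searched for the 6 genes with the smallest p-values in the immediate early, early response and heat shock lists, among genes with a reference sequence. CSRNP1, whose p was smaller than those of FOSL1 and DUSP5, was among them but is not printed. The promoters of 3 of them, ARC, FOSL1 and DUSP5, are shown. Each is the 250 bases before the annotated RefSeq start in Sscrofa11.1, 5′ to 3′ on the strand of the gene. Capitals mark matches, on either strand, to TGACG (the inner part of the site bound by CREB and ATF factors), to the CArG box bound by serum response factor, and to ACGTG (the core of the hypoxia response element). Matches that overlap share their capitals.
ARC, chr4:1517736-1517985, plus strand: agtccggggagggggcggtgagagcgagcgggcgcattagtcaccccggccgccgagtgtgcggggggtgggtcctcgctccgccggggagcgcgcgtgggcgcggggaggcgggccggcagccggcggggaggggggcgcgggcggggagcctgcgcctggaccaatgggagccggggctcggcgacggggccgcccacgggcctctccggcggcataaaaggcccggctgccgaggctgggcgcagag
FOSL1, chr2:6429908-6430157, plus strand: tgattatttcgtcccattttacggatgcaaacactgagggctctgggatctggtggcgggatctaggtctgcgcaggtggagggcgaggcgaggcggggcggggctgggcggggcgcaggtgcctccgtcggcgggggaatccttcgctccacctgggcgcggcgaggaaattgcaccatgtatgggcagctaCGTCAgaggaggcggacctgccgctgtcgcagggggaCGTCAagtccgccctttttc
DUSP5, chr14:120906090-120906339, plus strand: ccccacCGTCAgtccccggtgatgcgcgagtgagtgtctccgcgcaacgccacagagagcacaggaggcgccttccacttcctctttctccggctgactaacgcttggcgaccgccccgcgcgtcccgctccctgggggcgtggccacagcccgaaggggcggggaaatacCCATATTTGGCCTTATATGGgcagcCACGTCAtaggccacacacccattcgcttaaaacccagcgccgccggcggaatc
DUSP5 held 2 neighbouring CArG boxes, which start 79 and 69 bases before the start, and 1.31% of 19505 promoters of this length held at least 1. It also held TGACG at 244 and 52 bases and ACGTG at 54 bases before the start. FOSL1 held TGACG at 57 and 20 bases before the start, a motif found in 19.7% of promoters, and ACGTG was found in 18.7%. None of these 3 held the full CRE TGACGTCA (1.7% of promoters), the AP-1 site TGANTCA (5.23%) or the heat shock element GAANNTTC or TTCNNGAA (10.5%), and the ARC window held no match to any motif searched. Of the searched genes not printed, CSRNP1 held TGACG at 27 bases before the start. ATF3 held ACGTG at 194 and 193 bases and EGR2 at 44 and 43 bases. EGR2 also held a heat shock element match at 247 bases. A match is a run of letters and not a bound site.

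Early response effectors and feedback regulators, which act downstream of these factors or end the signal, were higher mainly in 0–1 h replicate 4. Of 26 genes 25 had an identifier and 21 were tested. Of the 21 tested, 16 had a fold change above 0 and 10 an unadjusted p under 0.05, beside 54.1% and 1.87% of all genes. The median log2 fold change was 1.15. The mean log2 CPM was 3.97, 3.47, 3.52 and 3.52 at baseline and 3.68, 3.75, 3.48, 6.62 and 4.20 in 0–1 h replicates 1 to 5. Only replicates 4 and 5, both of swine 1640, were above all baseline libraries. Without replicate 4 the median log2 fold change was 0.02 and 12 of 21 genes were higher (53.7% of all genes). None had an unadjusted p under 0.05, where 1.15% of all genes were higher and 1.047% lower. The higher level of this list thus rests on that library.

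ARC, an immediate early gene best known from synapses, was at 0.605, 1.7, 0, 858 and 8.1 CPM at 0–1 h and at 1.15, 0, 0 and 0.198 CPM at baseline. That is 5743 counts in replicate 4 and 70 in replicate 5 of the same swine, against at most 15 in any other library. The log2 fold change was 8.68 ± 2.21 (SE, unadjusted p = 0.000491, edgeR), and 2.82 without replicate 4 (unadjusted p = 0.0621, edgeR).

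DUSP5, a phosphatase that inactivates ERK in the nucleus, was at 5.56, 3.24, 0.265, 191 and 9.61 CPM at 0–1 h and at 0.993, 0, 3.35 and 2.43 CPM at baseline. Its log2 fold change was 4.58 ± 1.33 (SE, unadjusted p = 0.00176, edgeR). ZFP36, which marks cytokine mRNA for decay, was at 67, 28.4, 25.5, 278 and 62.3 CPM against 26.1, 24.6, 16.7 and 21.1 CPM, and all 4 non-fibrous libraries of 0–1 h were above all baseline libraries. TRIB1, a pseudokinase that directs protein degradation, was at 285 CPM in replicate 4 and at 12.8 to 18.5 CPM in the other 0–1 h libraries, against 14.5 to 22.7 CPM at baseline. For TRIB1 the direction thus came from 1 library, and without it the log2 fold change was -0.32.

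MYC and PDK4 were looked at with ARC because the study plots them over time. MYC, a factor that drives growth and metabolism, was at 8.1, 7.87, 18.8, 220 and 27.7 CPM at 0–1 h and at 14.1, 1.51, 5.52 and 7.73 CPM at baseline. Its log2 fold change was 2.94 ± 1.01 (SE, unadjusted p = 0.00678, edgeR). PDK4, the kinase that shuts pyruvate out of the citric acid cycle, was at 28.8, 115.97, 0.265, 991 and 52.7 CPM at 0–1 h and at 141, 21.8, 23.8 and 43.3 CPM at baseline. The fibrous libraries held the lowest level of PDK4 at 0–1 h and the highest at baseline. Its log2 fold change was 2.04 ± 1.33 (SE, unadjusted p = 0.135, edgeR), 3.27 without the fibrous libraries and -0.16 without replicate 4, so its direction depended on the libraries included.

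Genes of coagulation and fibrinolysis were higher at 0–1 h in 12 of 17 tested genes, with a median log2 fold change of 1.075 and 6 genes at an unadjusted p under 0.05, beside 54.1% of all genes higher and 1.87% higher at that threshold. Without 0–1 h replicate 4 the median was 0.84 and none of the 17 had an unadjusted p under 0.05. In that fit 1.15% of all genes were higher at this threshold and 1.047% lower. The list mean in log2 CPM was 3.63, 3.21, 3.40 and 3.73 at baseline and 3.50, 4.11, 4.21, 5.89 and 4.53 in 0–1 h replicates 1 to 5. Replicate 1 overlapped with baseline and the other 4 libraries were above it. THBS1, which encodes the matrix and platelet protein thrombospondin-1, was at 143.2, 184, 177.99, 3448 and 286 CPM at 0–1 h and at 49.3, 98.7, 122.2 and 71.6 CPM at baseline. The groups did not overlap. The log2 fold change was 3.31 ± 1.15 (SE, unadjusted p = 0.00743, edgeR), and 1.23 without replicate 4.

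PLAUR, the receptor of urokinase, was at 4.84, 11.104, 9.02, 93 and 7.64 CPM at 0–1 h and at 7.87, 2.16, 3.35 and 2.73 CPM at baseline, and the groups overlapped through baseline replicate 1 alone. SERPINB2, an inhibitor of urokinase, was at 791 CPM in replicate 4 and at 18.4 to 25.5 CPM in the other libraries of 0–1 h. At baseline it was at 0.229, 26.3, 21.9 and 16.6 CPM, so only replicate 4 was above.

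**Figure D3:**
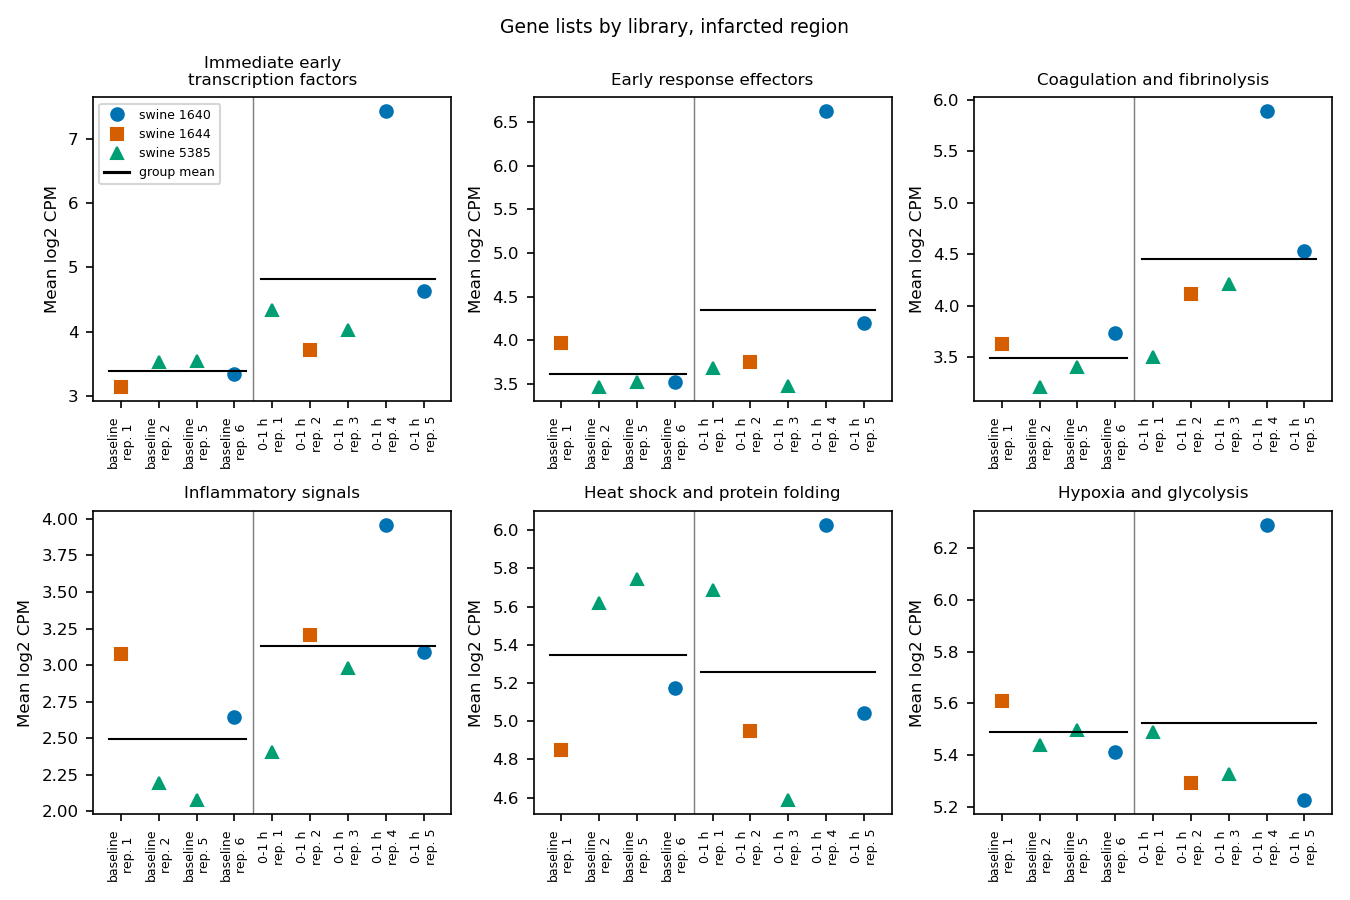
Mean log2 CPM of 6 gene lists in each of the 4 baseline and 5 0–1 h libraries, with colour and shape for the swine and a line for each group mean. Replicate 4 of 0–1 h is the highest point in all panels, and the other 0–1 h libraries are above baseline for immediate early transcription factors (3.71 or more against 3.55 or less) but not for heat shock.

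Inflammatory signals were higher in 18 of 22 tested genes, with a median log2 fold change of 0.85 and 4 genes at an unadjusted p under 0.05, beside 54.1% of all genes higher and 1.87% higher at that threshold. The 4 became 2 without 0–1 h replicate 4 or baseline replicate 2, beside 1.15% and 1.01% of all genes in those fits. Without baseline replicate 5 there was 1, beside 1.22%. Without 0–1 h replicate 1 there were 8 and without 0–1 h replicate 2 there were 7, beside 3.3% and 2.73%. Without the fibrous libraries there were 8, beside 2.17%. CCL2, a chemokine that attracts monocytes, was at 11.5, 30.2, 1.33, 73.1 and 20.9 CPM at 0–1 h and at 8.02, 6.05, 4.19 and 7.29 CPM at baseline. It was above baseline in all libraries of 0–1 h but the fibrous one. IL1A, an alarm cytokine released by damaged cells, was at 1.09, 4.47, 5.57, 1.35 and 0.926 CPM against 1.45, 0, 0.167 and 0.347 CPM. OSMR, the receptor of oncostatin M, was at 22.9, 71.1, 18.8, 198 and 67.2 CPM against 50.9, 14.3, 16.1 and 31.7 CPM. IL10, an anti-inflammatory cytokine, was at 0.149 to 4.77 CPM at 0–1 h and had 3, 0, 0 and 0 counts at baseline, too few for a fold change. IL1B, IL6 and TNF were on the list but not among the genes tested.

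Leukocyte markers were read beside these genes. The 5 tested neutrophil and monocyte markers summed to 171.3, 231.6, 492.9, 444.1 and 179.7 CPM in 0–1 h replicates 1 to 5 and to 123.1 to 247.4 CPM at baseline, with no tested marker at 0 in any library. ITGAM, an integrin of these cells, was at 242 CPM in the fibrous library of 0–1 h and at 24.5 to 34.2 CPM in the other 4, against 23.7 to 40.7 CPM at baseline. VCAN, followed by ITGAM, had the highest mean CPM of the 5, so the sums weigh these markers most and do not count leukocytes. The part of leukocytes in the inflammatory values was not tested.

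Secreted growth factors were higher in 19 of 22 tested genes, with a median log2 fold change of 0.86 and 3 genes at an unadjusted p under 0.05, beside 54.1% of all genes higher and 1.87% higher at that threshold. Without 0–1 h replicate 4 there were 1 higher and 1 lower at that threshold, beside 1.15% and 1.047% of all genes. Without 0–1 h replicate 1 or 2 there were 6 higher, beside 3.3% and 2.73% of all genes. Without baseline replicate 1 or without the fibrous libraries there were 5 higher, beside 2.12% and 2.17%. HBEGF, a ligand of the EGF receptor, was at 120 CPM in replicate 4 and at 2.92 to 9.03 CPM in the other 0–1 h libraries, against 1.76 to 8.57 CPM at baseline. TGFB3 was high in both libraries of swine 1640, at 105 and 104.3 CPM in replicates 4 and 5, and at 11.5, 29.1 and 20.4 CPM in replicates 1 to 3. At baseline it was at 7.87, 2.59, 10.5 and 23.2 CPM, the last of these in swine 1640. AREG, another EGF receptor ligand, was at 0 to 5.23 CPM at 0–1 h and at 0 to 0.545 CPM at baseline.

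Genes of cell death and stress signalling were higher in 14 of 17 tested genes, with a median log2 fold change of 0.51, 2 genes higher and 1 lower at an unadjusted p under 0.05, beside 1.87% and 1.46% of all genes. Without 0–1 h replicate 4 the median was 0.14, and 11 of the 17 were higher, beside 53.7% of all genes. None then had an unadjusted p under 0.05, where 1.15% of all genes were higher and 1.047% lower. The 2 higher became 1 without baseline replicate 2, 5 or 6, beside 1.01%, 1.22% and 4.93% of all genes. Without 0–1 h replicate 5 or baseline replicate 1 no gene was lower at that threshold, beside 1.349% and 0.9683% of all genes. PHLDA2 was at 1.09, 1.7, 5.31, 30.9 and 5.09 CPM at 0–1 h and at 1.37, 0.216, 2.51 and 0.842 CPM at baseline. GADD45B, a stress-induced regulator of p38 signalling, was at 182.8 CPM in replicate 4 and at 0.796 to 24.9 CPM in the others, against 5.83 to 14.4 CPM. TP53INP1, a target of p53, was the lower member, at 53.4, 35.9, 41.1, 17.5 and 26.2 CPM against 89.7, 50.1, 55.2 and 50.7 CPM.

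Heat shock and hypoxia genes were about evenly split between higher and lower, while 0–1 h replicate 4 had the highest mean of the 9 libraries for both lists. In heat shock and protein folding 11 of 21 tested genes were higher and 10 lower, where 54.1% of all genes were higher. The median log2 fold change was 0.03 and no gene had an unadjusted p under 0.05. HSP90AB1, a chaperone, was at 176.7, 91.3, 105, 134.2 and 103.5 CPM at 0–1 h and at 216.5, 193, 185.7 and 128.95 CPM at baseline. HSPH1 was at 95.4 CPM in replicate 4, at 10 to 24.4 CPM in the other 0–1 h libraries and at 11.2 to 18.8 CPM at baseline. Of 18 tested hypoxia and glycolysis genes 8 were higher and 10 lower, beside the same 54.1%, with a median log2 fold change of -0.02. In replicate 4 the mean log2 CPM was 6.03 for heat shock and 6.29 for hypoxia, against at most 5.74 and 5.61 at baseline and 5.69 and 5.49 in the other 0–1 h libraries. It was above every baseline library in 13 of 21 heat shock and 8 of 18 hypoxia genes, beside 24.2% of all genes. Without it the medians were -0.31 and -0.20.

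NDRG1, a stress gene induced by low oxygen, was the hypoxia gene with the smallest p. It was at 13.2, 47.5, 91.8, 285 and 54.7 CPM at 0–1 h and at 58.4, 14.9, 13.9 and 49.7 CPM at baseline (log2 fold change 1.52 ± 0.69 SE, unadjusted p = 0.035, edgeR). HK2, a hexokinase of glycolysis, was at 56 and 112.2 CPM in replicates 3 and 4 and at 8.02 to 17.6 CPM in the others, against 10.1 to 25.5 CPM. P4HA1, which hydroxylates collagen, was at 40.7 to 153.4 CPM against 30.4 to 54.2 CPM, and EGLN1, an oxygen sensor, at 43.5 to 100.7 CPM against 75.1 to 119.2 CPM.

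Genes of fatty acid use were lower in 19 of 22 tested genes, where 54.1% of all genes were higher, with a median log2 fold change of -0.46. The 2 members lower at an unadjusted p under 0.05, beside 1.46% of all genes, were both high in the fat-rich baseline replicate 1. UCP3, a mitochondrial carrier, was at 101.5 CPM in that library and at no more than 1.54 CPM in the other 8. LPL, which frees fatty acids from blood lipids, was at 1530 CPM there, at 140 to 345 CPM in the other baseline libraries and at 13 to 303 CPM at 0–1 h. Without the fibrous libraries the log2 fold change was 0.90 for UCP3 and -0.78 for LPL, neither at an unadjusted p under 0.05. In that fit 2 other members were higher at this threshold and none was lower, beside 2.17% and 1.3% of all genes. These 2 were PDK4 and PLIN2, a lipid droplet protein (log2 fold changes 3.27 and 2.20). In direction 17 of 22 genes were lower there, where 55.6% of all genes were higher. ACSL1, which activates fatty acids, was at 54.1 to 341 CPM against 152.5 to 405 CPM.

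Sarcomere and calcium genes were lower in 18 of 19 tested genes, where 54.1% of all genes were higher. The median log2 fold change was -0.47, and none had an unadjusted p under 0.05. With counts summed per swine and swine as a block the list turned, with 16 of 19 higher and a median of 0.20, and limma-voom gave 7 higher and 12 lower. Without the fibrous libraries the median was -0.60 with 19 of 19 lower, where 55.6% of all genes were higher. TNNT2 then was at 5651, 2462, 2938 and 1718 CPM at 0–1 h against 9371, 7042 and 2910 CPM (log2 fold change -1.06, unadjusted p = 0.0495, edgeR). The 2 baseline libraries with the higher levels were from swine 5385. In swine 1640 TNNT2 was at 2910 CPM at baseline and at 2938 and 1718 CPM at 0–1 h. MYH6, the alpha myosin heavy chain, was at 34257, 11501, 18769 and 10964 CPM against 58933, 47455 and 21877 CPM in these libraries.

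Transcripts of the mitochondrial genome were lower in 12 of 13 tested genes, where 54.1% of all genes were higher, with a median log2 fold change of -0.52. CYTB was at 746 to 3197 CPM at 0–1 h and at 710 to 6933 CPM at baseline, the lowest value of each group being that of its fibrous library (log2 fold change -0.78 ± 0.62 SE, unadjusted p = 0.219, edgeR). Cardiac stress genes were split evenly, with 6 higher and 6 lower of 12, where 54.1% of all genes were higher. Without 0–1 h replicate 4 there were 1 higher and 11 lower, where 53.7% of all genes were higher, with a median log2 fold change of -0.87. XIRP1, which binds actin at the intercalated disc, was at 3694 CPM in replicate 4, at 6.1 to 380 CPM in the other 0–1 h libraries and at 1.07 to 608 CPM at baseline.

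Of the 20 tested clock genes 1 was below baseline in every 0–1 h library and none was above, beside 0.508% and 0.357% of all genes. NR1D1, the repressor REV-ERB alpha, was at 6.41, 5.24, 1.86, 5.83 and 6.13 CPM at 0–1 h and at 15.8, 7.13, 12.2 and 12.8 CPM at baseline, lower in every library (log2 fold change -1.23 ± 0.47 SE, unadjusted p = 0.0139, edgeR). It was at 5.04 CPM as the median of 1–3 h. BMAL1, which NR1D1 represses, was at 32.2, 36.9, 94.4, 83.3 and 28.1 CPM against 33.2, 32.8, 27.5 and 30.1 CPM, high in 2 libraries and level with baseline in the others. CRY1, a repressor of the clock, was at 21.8 to 35.8 CPM in 4 libraries and at 110 CPM in replicate 4, against 20.9 to 27.4 CPM. CIART was at 2.39 to 8.71 CPM against 6.7 to 13.8 CPM. Over the list 10 of 20 tested genes were higher and 10 lower, where 54.1% of all genes were higher. The hour of day of the biopsies was not given in the sources used here.

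Among the genes with the smallest p-values whose groups did not overlap, some were higher by a similar amount in all 5 libraries. PPM1L, a protein phosphatase, was at 105.6, 111.96, 133.4, 78 and 151.8 CPM at 0–1 h and at 43, 43.2, 59.9 and 54.7 CPM at baseline. Here replicate 4 was the lowest of its group (log2 fold change 1.21 ± 0.43 SE, unadjusted p = 0.00924, edgeR, and 1.34 without replicate 4). At 1–3 h PPM1L had a median of 32.5 CPM. CD83, a surface protein of activated immune cells, was at 21, 25.6, 14.6, 31.2 and 19 CPM at 0–1 h and at 13.1, 5.83, 3.85 and 6.49 CPM at baseline. Its log2 fold change was 1.60 ± 0.53 (SE, unadjusted p = 0.00545, edgeR), 1.47 without replicate 4 and 2.12 without the fibrous libraries. CLEC5A, a receptor of myeloid cells, had 7, 16, 7, 15 and 13 counts at 0–1 h and 0, 0, 0 and 4 counts at baseline. ARID5B, a DNA-binding protein, was at 128, 156.99, 136.6, 801 and 128.8 CPM against 126, 73, 88.7 and 93.5 CPM. LCA5L was at 2.78 to 8.49 CPM against 0.432 to 2.58 CPM, and CFAP90 and KCNH4 were at no more than 3.45 CPM in any library.

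The 12 genes with the smallest p-values that were lower in all 5 libraries had log2 fold changes of -0.67 to -1.56. ELMOD3, which activates the GTPase function of small G proteins, had the smallest p-value of all genes tested. It was at 27.2, 22.7, 21.2, 21.7 and 18.7 CPM at 0–1 h and at 118.3, 30, 29 and 31.5 CPM at baseline. The log2 fold change was -1.23 ± 0.31 (SE, unadjusted p = 0.00039, adjusted p = 0.9765, edgeR), and -0.45 without the fibrous libraries, since baseline replicate 1 was far above the rest. PLEKHF1, an endosomal protein, was at 7.29 to 18 CPM against 18.4 to 48.6 CPM, and CCDC47, of the endoplasmic reticulum, at 11.14 to 34.7 CPM against 36.2 to 83.8 CPM. FECH, which inserts iron into heme, was at 37.2, 28.7, 21.8, 25 and 30.6 CPM against 44.2, 49.9, 62.3 and 41.1 CPM. GSTK1, a glutathione transferase of mitochondria and peroxisomes, was at 16.3, 16, 6.9, 3.14 and 6.83 CPM against 23.7, 24, 24.8 and 16.7 CPM.

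EMC10 and GPAA1, which help to insert membrane proteins and to attach lipid anchors in the endoplasmic reticulum, were at 14.8 to 24.4 and 11.2 to 20.2 CPM at 0–1 h. At baseline they were at 26.5 to 45.1 and 20.6 to 26.6 CPM. NR2F6, a nuclear receptor, was at 12.8 to 29.1 CPM against 37.4 to 45.2 CPM. LHX6, NUDT22 and AUP1 completed the 12 genes, with log2 fold changes of -1.45, -1.56 and -0.88. Of genes without a symbol, ENSSSCG00000036149 was at 2.42 to 6.37 CPM against 0.458 to 2.13 CPM, and ENSSSCG00000017515 at 9.28 to 19.3 CPM against 20 to 36 CPM.

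**Figure D4:**
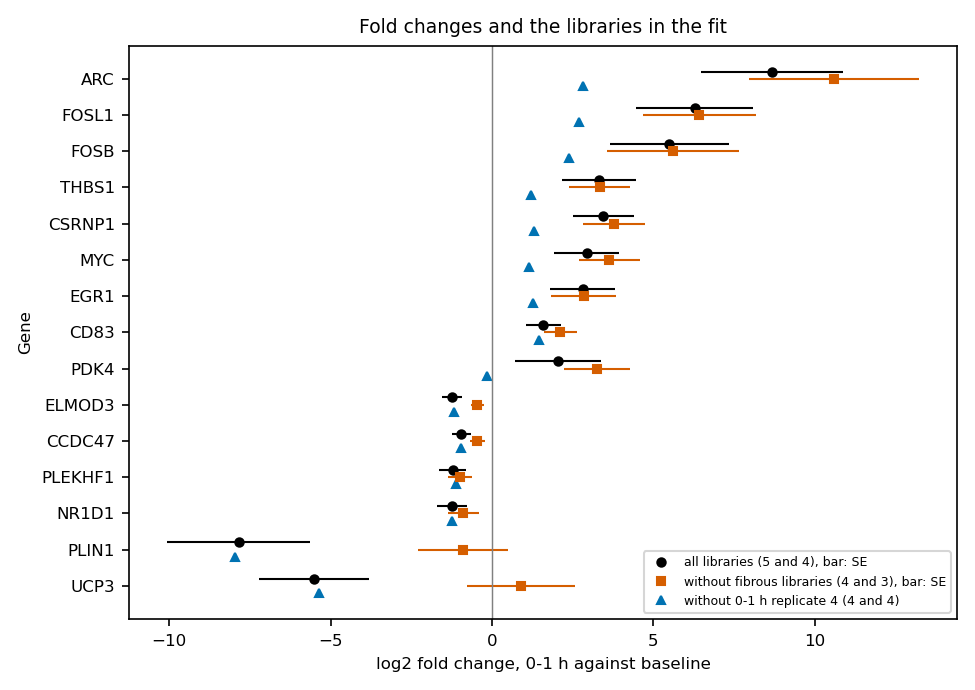
Log2 fold change of 15 genes at 0–1 h against baseline (x axis) from edgeR with all 9 libraries in the comparison (circles, bars are SE), without the fibrous libraries (squares, bars are SE) and without 0–1 h replicate 4 (triangles). ARC moves from 8.68 to 2.82 without replicate 4 while CD83 stays near 1.5, and UCP3 moves from -5.52 to 0.90 without the fibrous libraries.

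Within swine, the immediate early list was higher at 0–1 h in each of the 3 animals among the 9 libraries, by unequal amounts, and turned to -0.76 in swine 1644 when every apical library was used. The difference in mean log2 CPM, 0–1 h minus baseline, was 2.68 in swine 1640 (2 libraries and 1), 0.57 in swine 1644 (1 and 1) and 0.64 in swine 5385 (2 and 2). In swine 1640 the larger part was replicate 4, since replicate 5 was at 4.62 and baseline at 3.35. For CSRNP1 the differences in log2 CPM were 3.59, 0.76 and 1.27, for EGR1 3.03, 1.17 and 1.38, and for PPM1L 0.99, 1.38 and 1.22 in swine 1640, 1644 and 5385. ARC differed by 7.60, 0.48 and 0.91, and PDK4 by 2.39, -0.28 and -2.59. NR1D1 was lower in each swine, by -1.07, -1.55 and -1.36. CSRNP1, EGR1, PPM1L and NR1D1 were named because their groups did not overlap, so their direction within each swine was fixed by that choice. With 1 or 2 libraries per swine and timepoint no test within a swine was made, and the baseline of swine 1644 is the fat-rich library. The coagulation list differed by 1.48, 0.48 and 0.55, and the effector list by 1.89, -0.22 and 0.08.

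Contractile smooth muscle genes were highest in another single library. MYH11, the smooth muscle myosin heavy chain, was at 2649 CPM in 0–1 h replicate 5, at 8.37 to 345 CPM in the other 0–1 h libraries and at 14.7 to 169 CPM at baseline. TAGLN and ACTA2 were also highest there, at 341 and 740 CPM, and these 3 of the 9 tested markers of smooth muscle and pericytes had an unadjusted p under 0.05, beside 1.87% of all genes. Of the 9 markers 6 were higher and 3 lower, beside 54.1% of all genes higher, and the median log2 fold change was 0.16. Replicate 5 was the highest of the 9 libraries in 5 markers, for which no share over all genes was taken. The pericyte markers ABCC9, RGS5 and KCNJ8 were the lower ones (-0.83, -0.46 and -0.38). HBB, the beta globin gene of red cells, followed the swine among the 9 libraries. It was at 608 to 5274 CPM in the 4 libraries of swine 5385 and at 8.55 to 31.1 CPM in the others. In the left-out baseline replicate 4 and 0–1 h replicate 6, both of swine 1644, erythroid and platelet markers had a mean log2 CPM of 6.034 and 6.075. Scaled together, the 4 libraries of swine 5385 were at most at 4.835.

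**Figure D5:**
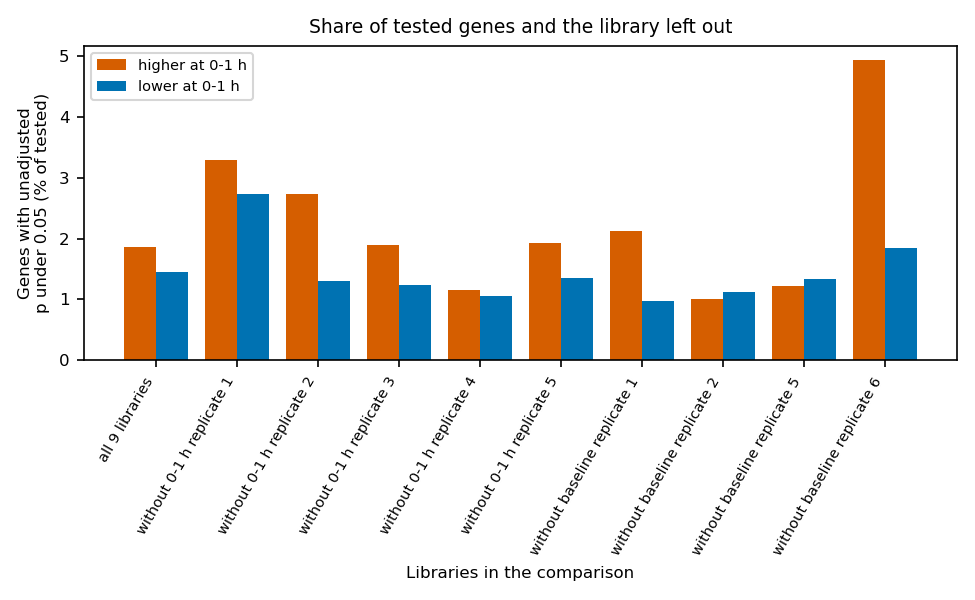
Percent of tested genes with an unadjusted p under 0.05 at 0–1 h against baseline (y axis, from 0), higher and lower, with all 9 libraries and after leaving out each in turn. The share higher falls from 1.868% to 1.148% without 0–1 h replicate 4 and to 1.011% without baseline replicate 2, and reaches 4.93% without baseline replicate 6.

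The share of genes at an unadjusted p under 0.05 depended on single libraries of both groups. Without baseline replicate 6 it was 4.93% higher and 1.842% lower, and without baseline replicate 2 it was 1.011% and 1.117%. No gene passed the adjusted threshold in edgeR in any of these 9 fits. At an adjusted p of 0.05 or less DESeq2 without the fibrous libraries called 30 genes (0.166%), all higher. Of these 26 had a symbol, among them THBS1, CSRNP1, PLAUR, FOSL1, ARC, MYC, PDK4, CD83 and GADD45B. In 30 of the 30 genes 0–1 h replicate 4 was above every baseline library, beside 24.2% of all genes in the main fit. In 29 it was the highest of the 9 libraries, for which no share over all genes was taken. The 30 genes were called with replicate 4 in the fit, so these counts are partly built into the calls.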

How the data were processed

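RNA-seq counts of 85 libraries were used. The authors mapped reads to Sscrofa11.1 with STAR and deposited raw featureCounts counts per Ensembl gene without normalization; their strand setting ignores strand, so overlapping and antisense genes cannot be told apart. The authors' normalized values and lists were not used. Libraries were grouped by location and timepoint labels. Genes that reached 1 CPM in 20% or more of the 29 apical libraries (baseline 4, 0–1 h 5, 1–3 h 9, day 2 4, day 14 7) were fitted in edgeR 4.0.16 (TMM, quasi-likelihood) in R 4.3.3 with timepoint as the only term, and p-values were adjusted over all genes. For mean levels, also in the figures, a prior count of 2 was added before taking log2 CPM, and of the figures only the heat map shows log2(CPM + 1). DESeq2 1.42.0 and limma 3.58.1 were alternatives, with the library, filter, scaling and swine block choices given in the closing section. The code was tested on simulated data.

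Libraries and gene lists were chosen with earlier results of these data known. Named genes were up to 12 per direction with the smallest p, a symbol and no overlap between groups, the 4 with the smallest p per list, the most abundant 2 per marker list, and MYC, ARC and PDK4. FOS, JUN and others outside this rule were named after their values were seen. Swine numbers mark the same animal, so they pair libraries: deviations from group means correlated by a mean of 0.15 within swine (7 pairs) and -0.08 between (13 pairs) in the 9 libraries. Symbols came from a name table, positions and promoters from RefSeq. Promoters were printed for 3 of the 6 genes searched, and 1 gene of the coagulation list is not reported here. Libraries differed in depth, and 3 counts were worth 0.1487 to 0.7958 CPM.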

Additional observations from a re-analysis of the deposited data

Results flagged for a closer look

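Gaps between 1 library and the rest of its group were tested in 48 groups of list means and 196 groups of gene levels (98 named genes). Of these 11 and 37 stood apart. Chance flags about 1 in 20 independent groups, but these share libraries and many genes were picked from the same data. The counts thus cannot be judged by that rate. Where all other libraries were at 0, as for IL10 and CLEC5A at baseline, any count stood apart. Mean log2 CPM of 0–1 h replicate 4 stood above its group for immediate early transcription factors (7.43, next 4.62), early response effectors (6.62, next 4.20) and hypoxia and glycolysis (6.29, next 5.49). Baseline replicate 1 was high for the effectors (3.97) and adipocyte markers (7.74) and low for cardiac stress genes (2.26), sarcomere genes (3.63) and cardiomyocyte markers (1.99). The fibrous library of 0–1 h, replicate 3, was low for markers of cardiomyocytes (4.45) and endothelium (4.09), and baseline replicate 5 was high for lymphocyte markers (2.16).

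Of the named genes, 0–1 h replicate 4 stood above its group in 10, with CSRNP1 at 337, FOSL1 at 70.25, ARID5B at 801, THBS1 at 3448, EGR1 at 971, TRIB1 at 285, PLAUR at 93, SERPINB2 at 791, HBEGF at 120 and ENSSSCG00000051262 at 7.92 CPM. In 0–1 h replicate 3 the levels that stood apart were 11.14 CPM for CCDC47, 1.86 for NR1D1, 0 for NUDT22, 0.796 for SYNPO2L, 265 for MYH6, 84.9 for TNNT2 and 14.6 for KDR, all low, and 242 CPM for ITGAM, high. In baseline replicate 1 they were high for ELMOD3 (118.3 CPM), PLEKHF1 (48.6), IL10 (0.229), TP53INP1 (89.7), UCP3 (101.5), ADIPOQ (1727) and PLIN1 (581), and low for SERPINB2 (0.229), ANKRD2 (0.993), SYNPO2L (1.53), XIRP1 (1.07), MYH6 (19.2) and TNNT2 (2.14). Single values in other libraries were UCP3 at 1.54 CPM in 0–1 h replicate 2, ENSSSCG00000024388 at 22 CPM in 0–1 h replicate 5, NR2F6 at 45.2 CPM in baseline replicate 5, and CLEC5A at 0.198, AREG at 0.545 and GSTK1 at 16.7 CPM in baseline replicate 6.

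The immediate early list was also read in 6 libraries outside the comparison, scaled here together with the 9. The highest of the 4 kept baseline libraries was at 3.51 in mean log2 CPM. A 0–1 h library labelled as lateral, the non-infarcted region, was at 6.92 (lateral 0–1 h replicate 1, swine 1644), another at 3.82 (replicate 3, swine 1640) and the last at 3.18 (replicate 2, swine 5385). A baseline library left out because 10 genes held most of its counts (replicate 4, swine 1644) was at 5.20, above 4 of the 5 kept libraries of 0–1 h, the other left-out baseline library (replicate 3, swine 1640) was at 1.97, and the left-out library of 0–1 h was at 3.38.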

How the results depend on the processing

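The edgeR count of 0 called genes was the same under every alternative run with edgeR or limma; DESeq2 called 2 genes, and 30 without the fibrous libraries, all higher. At an unadjusted p under 0.05 (1.868% of tested genes higher, 1.456% lower) the share higher was 2.894% without a filter, 0.6437% with every apical library, 3.664% with DESeq2 (3.45% without the fibrous libraries), 0.7474% with limma-voom and 1.208% with counts summed per swine and swine as block. Leaving out 1 library gave 1.011% to 4.93% higher and 0.9683% to 2.732% lower. Swine as a replicate block gave 2.778% higher and 1.049% lower and, without the fibrous libraries, 0.6192% lower, and the block changed no call. Without the fibrous libraries and 0–1 h replicate 4, chosen after seeing the data like the other settings that join 2 choices, 0.8337% were higher and 0.7225% lower.

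The median log2 fold change of immediate early factors was 1.05 with every apical library, 0.8513 to 2.872 when 1 library was left out (lowest without 0–1 h replicate 4) and 0.80 without that and the fibrous libraries. For the effectors it was 0.02439 to 1.397 (lowest again without replicate 4) and 0.02984. With counts summed per swine and swine as block, the sarcomere list turned (median 0.1967, from -0.4687). The immediate early difference within swine 1644 was -0.76 with every apical library. Of 1688 values of named genes under alternatives 24 turned direction, and the cause was not tested. With every apical library these were KCNH4 (-0.03056), ZFP36 (-0.02) and ENSSSCG00000036149 (-0.01998). Leaving out 1 library gave TRIB1 -0.3207 to 2.125, PLIN2 -0.295 to 1.956, XIRP1 -0.8908 to 1.652 and PDK4 -0.1643 to 2.975, each lowest without 0–1 h replicate 4, and UCP3 -6.248 to 0.7308, highest without baseline replicate 1. Without replicate 4 and the fibrous libraries they were TRIB1 (-0.27), HSPH1 (-0.08283), HK2 (-0.45), SERPINB2 (-0.03413), CDKN1A (-0.50), XIRP1 (-0.90) and UCP3 (1.02). UCP3 was also at 0.90 without the fibrous libraries, 1.03 with DESeq2 and 1.07 with the block, both without the fibrous libraries, where HSPD1 was at 0.002499 with the block. Counts summed per swine gave ATP2A2 (0.20), KCNJ2 (0.18) and TNNT2 (0.02185), and limma-voom TNNT2 (0.51) and PDK4 (-0.01862). With 4 and 5 biopsies of 3 swine, edgeR called no gene in the main fit, although ARC had a log2 fold change of 8.68. The lack of calls is thus no sign that nothing changed, and the size of change that could be detected is not reported here.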
